A study of Homo sapiens with 18 samples.

Results

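The extracellular matrix and basement membrane genes of this study are a list of 47 genes by symbol: collagens, laminins, nidogens and basement membrane proteoglycans, adhesive and matricellular glycoproteins, microfibril and elastic fibre genes, collagen crosslinking enzymes and other proteoglycans. Of the 47, 44 have a transcript cluster (the array's unit for a gene) that carries their symbol alone, each exactly 1, of 18377 genes that do in all. COL17A1 and LAMA3 were not analysed here, and SDC4 was left out because its cluster also carries other symbols. Of the 44, 37 passed a filter on low values (a mean log2 signal over all arrays above 6.193, the 25th percentile of annotated clusters) and were tested. The 7 below it were COL6A3, COL8A1, LAMA4, SPARC, NID2, FBN2 and LTBP1, with mean log2 signals of 4.87 to 6.11.

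Basement membranes are thin sheets on which endothelial and epithelial cells sit. They are built from a laminin network, which cells assemble first and hold through integrins, and a type IV collagen network, which gives the sheet its strength, joined by nidogen and by the heparan sulphate proteoglycan perlecan. Beneath them lies the interstitial matrix of fibrillar collagens, fibronectin and elastic microfibrils, which lysyl oxidases crosslink; matricellular proteins such as tenascin-C and thrombospondins act there as signals to cells more than as structure. Interleukin-1β (IL-1β) is an inflammatory cytokine known to change the matrix that endothelial cells make, and aminaphtone is a drug used to protect capillary walls.

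The 18 samples are cultures of ECV304, a human line labelled as endothelial whose cells, per the labels, show endothelial and epithelial traits; it is known from later typing to derive from the T24 bladder carcinoma line, which limits it as a model of endothelium. Confluent cells, held for 24 h in 1% fetal bovine serum after growth in 10%, received IL-1β at 100 IU/ml in every culture. The control group had IL-1β and medium alone and the treated group IL-1β and aminaphtone at 6 µg/ml, each for 1, 3 and 6 h with 3 independent replicates, giving 6 groups. Total RNA was read on Affymetrix Human Gene 1.0 ST arrays, and no culture without IL-1β was analysed, so a difference between times joins the time under IL-1β with the time in culture and these cannot be told apart. In such bulk RNA, fewer cells making a transcript and less of it per cell also cannot be told apart.

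Markers of the labelled cell type were checked first. Of 10 endothelial markers, 6 (PECAM1, VWF, KDR, TEK, ERG and EMCN) lay below the filter on low values, with mean log2 signals of 4.57 to 6.03, and CDH5, TIE1, CLDN5 and ESAM lay above it. All 13 epithelial and urothelial markers lay above it, with the keratins KRT7, KRT8 and KRT18 at 11.36, 12.38 and 11.75. The fibroblast markers DCN and LUM, at 3.80 and 3.14, and the leukocyte marker PTPRC, at 3.63, were near the bottom of the scale. PDGFRA and CD3E, at 5.64 and 5.67, also lay below the filter. The fibroblast markers COL1A2, COL3A1, PDGFRB and THY1, at 6.87, 6.90, 6.68 and 6.69, lay above it. So did the leukocyte markers CD14 and CD68, at 6.90 and 8.65. The summed linear signal of the epithelial list in the controls ranged from 12420 to 17460 at 1 h, 11300 to 14850 at 3 h and 11300 to 12610 at 6 h, and with aminaphtone from 12890 to 14020, 11640 to 14070 and 10370 to 10660. Of its 13 markers none was called at 3 h against 1 h and 4 fell at 6 h in each treatment. At 6 h 15.2% of all clusters tested fell in the controls and 10.7% with aminaphtone. The endothelial sum ranged from 933.4 to 1302, 1195 to 1274 and 1192 to 1309 in the controls and from 908.9 to 966.8, 1007 to 1219 and 1091 to 1265 with aminaphtone, where the later arrays lay above those of 1 h. CDH5, the VE-cadherin gene, was the endothelial marker that rose, by 0.75 ± 0.12 and 0.93 ± 0.12 log2 units in the controls (adjusted p = 0.000862 and 7.47e-05) and 0.44 ± 0.12 and 0.59 ± 0.12 with aminaphtone (adjusted p = 0.0293 and 0.00332) at 3 h and 6 h. The leukocyte sum ranged from 443.4 to 683.3, 554.6 to 615.3 and 612.9 to 639.8 in the controls and from 507.3 to 533.8, 559.7 to 691.3 and 573.7 to 674.9 with aminaphtone. CD14 differed from 1 h by -0.55 ± 0.14 at 3 h and -0.61 ± 0.14 at 6 h in the controls (limma, adjusted p = 0.0163 and 0.00459). CD68 rose there at 6 h by 0.45 ± 0.16 (adjusted p = 0.0433), and neither was called with aminaphtone. The fibroblast sum ranged from 427.3 to 592 over all groups. The part of these lists in the changes below was not tested.

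The control arrays at 1 h stood apart from their own group. The correlation between arrays over all 28869 clusters of the array, tested or not, was 0.9645 to 0.9863 within that group and at least 0.9856 in every other. Control replicate 1 at 1 h correlated with the 3 aminaphtone arrays at 1 h at 0.995 to 0.996, and with its own 2 partners at 0.9645 and 0.986. Of the 37 tested matrix genes, 25 were higher and 11 lower in control replicate 2 than in replicate 1 at 1 h, with differences from -2.01 log2 units for VCAN (9.36 in replicate 1, 7.35 in replicate 2) to 0.89 for LAMA5. The median SD over the members was 0.32 log2 units among the 1 h controls and 0.09 to 0.16 in the other 5 groups. Every comparison with the 1 h controls therefore rests on arrays that disagree, and the counts are given below with and without them.

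**Figure D1:**
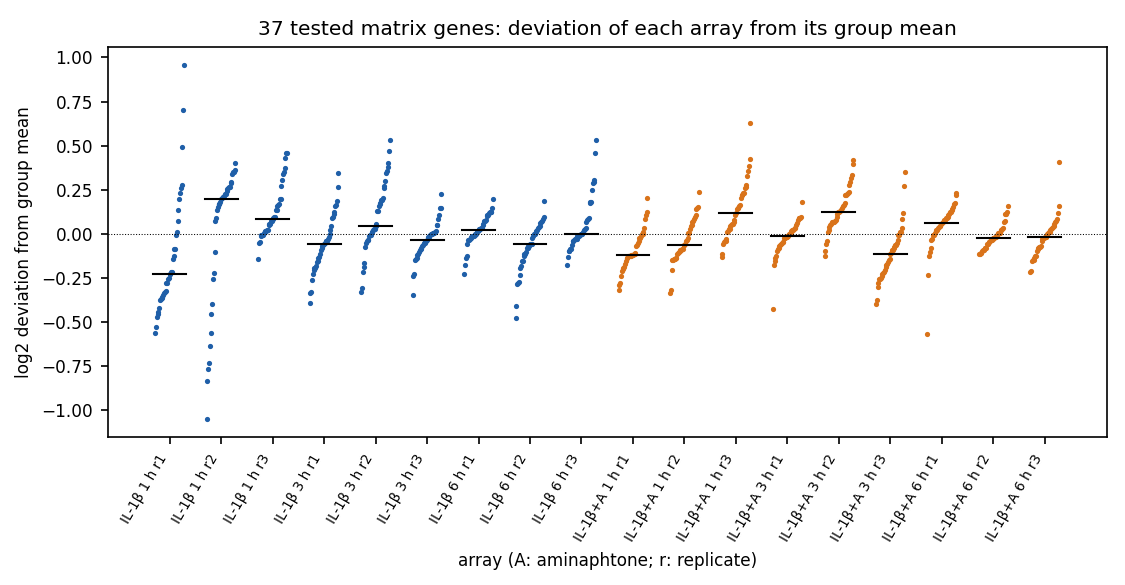
Deviation of each of the 37 tested matrix genes (points, ordered by size within an array; y axis, log2 units) from the mean of its group, for each of the 18 arrays (x axis; blue, IL-1β alone; orange, with aminaphtone); black bars are medians. The median was -0.23 in control replicate 1 and 0.20 in control replicate 2 at 1 h, and the points of those arrays spread the widest.

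Between 1 h and the later times, the genes for type IV collagen, perlecan and the laminin β3 chain rose in control and in aminaphtone-treated cells, and some laminin, microfibril and proteoglycan genes fell. A set of 6 members, COL4A1, COL4A2, LAMB3, HSPG2, LOXL2 and TGFBI, rose at 3 h and at 6 h in each treatment, and no member fell in all 4 of these comparisons. The share of all clusters that rose or fell in all 4 was not counted, so the 6 cannot be set against it. Of all 15796 clusters tested, 727 at 3 h and 1604 at 6 h were called in both treatments with the same sign. In the controls at 3 h against 1 h, 7 of 37 members rose and 1 fell, where 4.81% of all 15796 clusters tested rose and 7.98% fell (limma, adjusted p under 0.05). In the controls at 6 h, 10 rose and 7 fell, against 11.3% and 15.2% of all clusters; the 10 include LOX, which passed the filter on low values only through this group, and are 9 without it. With aminaphtone, 9 rose and 1 fell at 3 h, where 5.09% and 5.45% of all clusters did, and 8 rose and 4 fell at 6 h, where 6.01% and 10.7% did. The median over the 37 members was 0.03 and -0.03 log2 units in the controls at 3 h and 6 h and 0.19 and 0.12 with aminaphtone, while that over all clusters tested lay from -0.02 to 0.02, so genes moved both ways within the list.

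The treatment arms use separate arrays, and their calls can be set side by side. At 3 h, 7 members were called in each arm with the same sign, which is 87.5% of the 8 called in the controls and 70.0% of the 10 called with aminaphtone. Over all clusters the shared calls were 36.0% and 43.7%. At 6 h, 10 members were shared, 58.8% of the controls' 17 and 83.3% of the treated cells' 12, against 38.4% and 60.7% over all clusters. Whether members share more often than other genes was not tested.

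**Figure D2:**
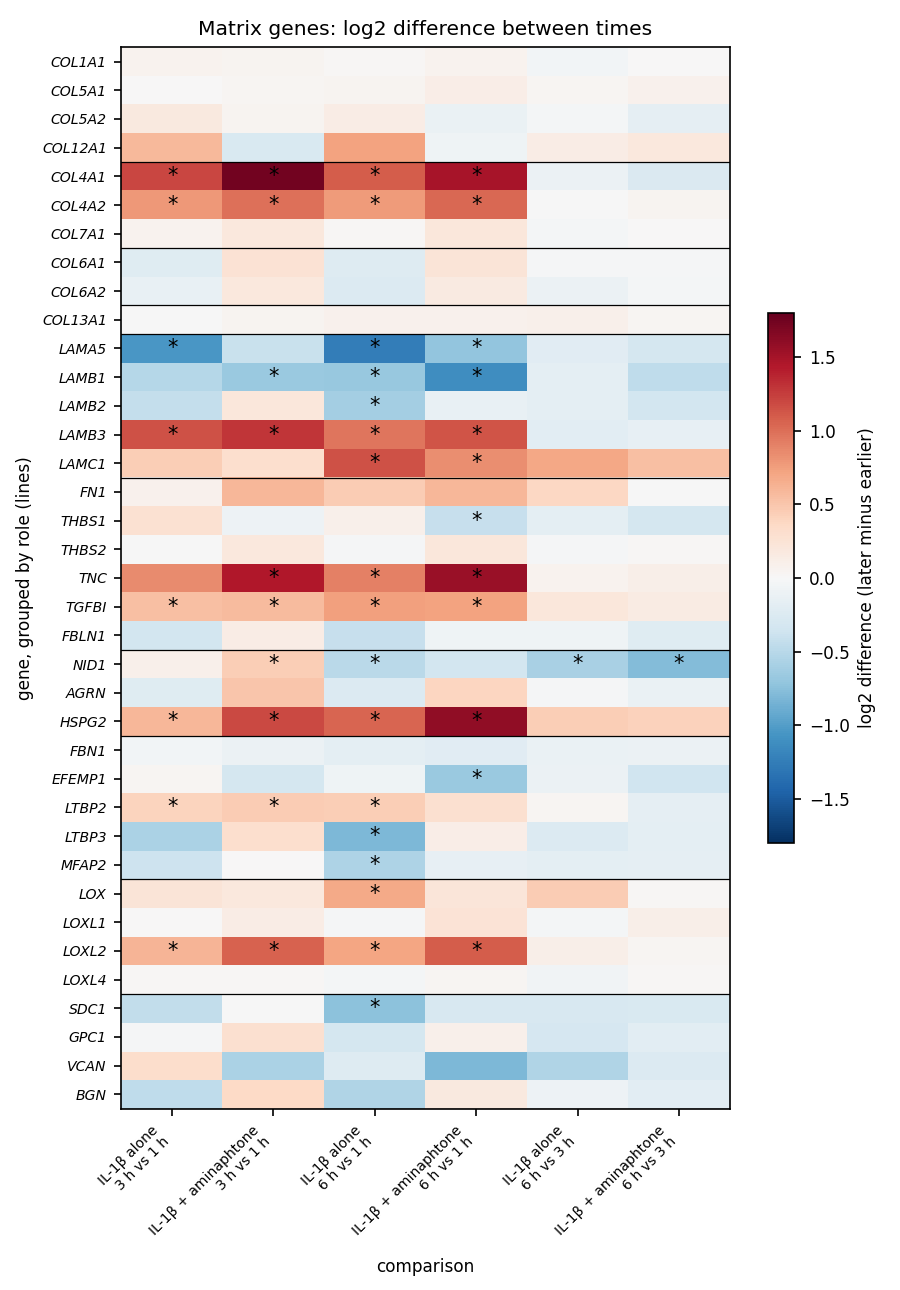
Log2 difference (colour; red, higher at the later time) for the 37 tested matrix genes (rows, grouped by role between lines) in 6 comparisons of times (columns); an asterisk marks an adjusted p under 0.05 in limma. COL4A1, COL4A2, LAMB3, HSPG2, LOXL2 and TGFBI carry asterisks in all 4 comparisons with 1 h, and NID1 alone carries them between 3 h and 6 h.

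COL4A1 and COL4A2 encode the chains of the common form of type IV collagen, the sheet-forming collagen of all basement membranes. The log2 signal of COL4A1 in the controls was 7.82, 7.65 and 8.25 at 1 h, 8.99, 9.07 and 9.26 at 3 h, and 8.98, 8.84 and 9.17 at 6 h. With aminaphtone it was 7.21, 7.38 and 7.87 at 1 h, 9.26, 9.27 and 9.17 at 3 h, and 8.97, 8.90 and 9.06 at 6 h. In each treatment every later array lay above every 1 h array, and the arrays of 3 h and 6 h lay close together. COL4A1 rose by 1.20 ± 0.17 log2 units at 3 h (SE, 3 arrays a group; 2.30-fold, adjusted p = 0.000157) and 1.09 ± 0.17 at 6 h (2.13-fold, adjusted p = 0.000219) in the controls. With aminaphtone it rose by 1.74 ± 0.17 (3.35-fold, adjusted p = 3.87e-06) and 1.49 ± 0.17 (2.81-fold, adjusted p = 1.39e-05).

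COL4A2 read 7.74, 8.30 and 8.31 in the controls at 1 h, 8.77, 9.03 and 8.90 at 3 h, and 8.99, 8.81 and 8.86 at 6 h. The treated arrays read 7.70, 7.79 and 7.99, then 8.88, 8.94 and 8.63, then 8.91, 8.75 and 8.93. As with its partner, the step lay between 1 h and 3 h and no later array overlapped the 1 h arrays. COL4A2 rose by 0.78 ± 0.15 at 3 h (adjusted p = 0.00205) and 0.77 ± 0.15 at 6 h (adjusted p = 0.00119) in the controls, and by 0.99 ± 0.15 (adjusted p = 0.000291) and 1.04 ± 0.15 (adjusted p = 0.00013) with aminaphtone. The 8 calls for the pair were kept without each of the 18 arrays in turn. COL7A1, the collagen of the anchoring fibrils beneath the epithelial basement membrane, was not called in any comparison of the main fit (group means over all 18 arrays, none of the alternatives described below). Its differences were 0.06 and 0.02 in the controls and 0.19 and 0.20 in treated cells at 3 h and 6 h.

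The collagen IV pair is shown because its members moved together and share a promoter: they lie head to head on opposite strands of chromosome 13, with RefSeq starts 127 bases apart, so that 226 bases of their promoter windows (250 bases before to 50 after the start) are the same stretch. The windows below are from RefSeq on GRCh38.p14, written 5′ to 3′ on each gene's own strand, with capitals on every match to a searched motif, here only the Sp1 box GGGCGG on either strand (COL4A1, minus strand, chr13:110307108-110307407; COL4A2, plus strand, chr13:110307034-110307333).
COL4A1: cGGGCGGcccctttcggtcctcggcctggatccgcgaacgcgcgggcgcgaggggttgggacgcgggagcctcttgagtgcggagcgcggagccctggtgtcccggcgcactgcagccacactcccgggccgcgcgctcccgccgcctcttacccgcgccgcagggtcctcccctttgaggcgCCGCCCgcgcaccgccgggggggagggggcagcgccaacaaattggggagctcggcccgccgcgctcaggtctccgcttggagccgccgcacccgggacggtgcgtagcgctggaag
COL4A2: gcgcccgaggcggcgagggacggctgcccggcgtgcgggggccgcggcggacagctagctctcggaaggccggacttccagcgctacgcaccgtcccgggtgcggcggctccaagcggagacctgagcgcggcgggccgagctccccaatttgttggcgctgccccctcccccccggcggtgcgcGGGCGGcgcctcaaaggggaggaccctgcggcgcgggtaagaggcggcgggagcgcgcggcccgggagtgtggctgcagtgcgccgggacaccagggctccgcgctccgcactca
Promoters of 40 of the 47 genes were in the table, and on both strands the 6 motifs searched were GGGCGG (Sp1), TGANTCA (AP-1), GGAATG (TEAD), ACGTG (the HIF core), TATAAA and the NF-κB consensus. An Sp1 box stood in 75.0% of the members' windows against 44.95% of all 35116 windows; the GC content was 76.67% in the COL4A1 window and 77.67% in that of COL4A2, with a median of 58.67% over all windows. AP-1 stood in 5.0% of members' windows against 7.71%, TEAD in 12.5% against 14.03%, the HIF core in 15.0% against 21.41%, NF-κB in 22.5% against 11.27% and TATAAA in 12.5% against 11.53%. A match describes these letters only.

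Laminins are trimers of an α, a β and a γ chain, and the 5 tested chain genes moved in opposite directions. At 6 h in the controls LAMB3 and LAMC1 rose and LAMA5, LAMB1 and LAMB2 fell. With aminaphtone LAMB3 and LAMC1 rose and LAMA5 and LAMB1 fell, while LAMB2 differed by -0.13. LAMB3 encodes the β3 chain of the laminin that anchors epithelial cells at hemidesmosomes, LAMC1 the γ1 chain found in most laminins, and LAMA5 and LAMB1 chains of the laminins typical of adult vessels and epithelia.

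LAMB3 read 7.42, 8.001 and 8.17 in the controls at 1 h, 8.76, 9.27 and 9.02 at 3 h, and 8.82, 8.64 and 9.00 at 6 h. With aminaphtone it read 6.999, 7.15 and 7.49, then 8.49, 8.77 and 8.22, then 8.38, 8.26 and 8.38. No later array of either treatment overlapped that treatment's 1 h arrays. LAMB3 rose in the controls by 1.15 ± 0.19 at 3 h (2.22-fold, adjusted p = 0.00101) and 0.96 ± 0.19 at 6 h (adjusted p = 0.00209), and with aminaphtone by 1.28 ± 0.19 (2.43-fold, adjusted p = 0.000383) and 1.13 ± 0.19 (adjusted p = 0.000733).

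LAMC1 followed another course, with its step after 3 h. In the controls it read 9.64, 8.63 and 9.82 at 1 h, 9.75, 9.77 and 9.92 at 3 h, and 10.63, 10.39 and 10.51 at 6 h. The treated arrays read 9.63, 9.59 and 9.82, then 9.96, 9.99 and 9.98, then 10.54, 10.50 and 10.52, and those of 6 h stood above all earlier arrays in each treatment. LAMC1 rose at 6 h against 1 h by 1.15 ± 0.20 in the controls (2.21-fold, adjusted p = 0.000809) and 0.84 ± 0.20 with aminaphtone (1.79-fold, adjusted p = 0.00843). At 6 h against 3 h the difference was 0.70 ± 0.20 and 0.54 ± 0.20 and was not called (adjusted p = 0.177 and 0.339); without the 1 h arrays it was called in each treatment. Control replicate 2 at 1 h read 8.63, far under its partners.

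LAMA5 was the member that fell the most in the controls. It read 9.79, 10.68 and 10.48 at 1 h, 9.12, 9.66 and 9.05 at 3 h, and 9.11, 9.17 and 8.94 at 6 h, and with aminaphtone 9.65, 9.70 and 10.03, then 9.35, 9.82 and 9.02, then 9.18, 9.07 and 9.01. The 6 h arrays lay below all 1 h arrays in each treatment, and the treated arrays of 3 h overlapped those of 1 h. LAMA5 fell by 1.04 ± 0.22 at 3 h (adjusted p = 0.00558) and 1.25 ± 0.22 at 6 h (2.37-fold, adjusted p = 0.000818) in the controls, and by 0.71 ± 0.22 at 6 h with aminaphtone (adjusted p = 0.0367), where the 3 h difference was -0.39 (adjusted p = 0.336). Without control replicates 2 and 3 at 1 h the control calls were lost, and the treated call at 6 h was kept without 12 of the 18 single arrays.

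LAMB1 fell with aminaphtone by 0.66 ± 0.20 at 3 h (adjusted p = 0.041) and 1.12 ± 0.20 at 6 h (2.17-fold, adjusted p = 0.00095), and in the controls by 0.68 ± 0.20 at 6 h (adjusted p = 0.0183). The 3 h call, the 1 fall among the treated calls at that time, was kept without 5 of the 18 single arrays and lost under 14 of 26 alternatives, the replicate block among them. These differences were not shown to differ between the treatments, as the test of treatment by time called no member. Its treated arrays went from 8.83, 8.72 and 9.02 at 1 h to 7.78, 7.65 and 7.79 at 6 h with no overlap, while control replicate 2 at 1 h, at 7.88, overlapped the 6 h controls of 7.79 to 7.89. LAMB2, the β2 chain, fell in the controls at 6 h by 0.61 ± 0.17 (adjusted p = 0.0141).

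**Figure D3:**
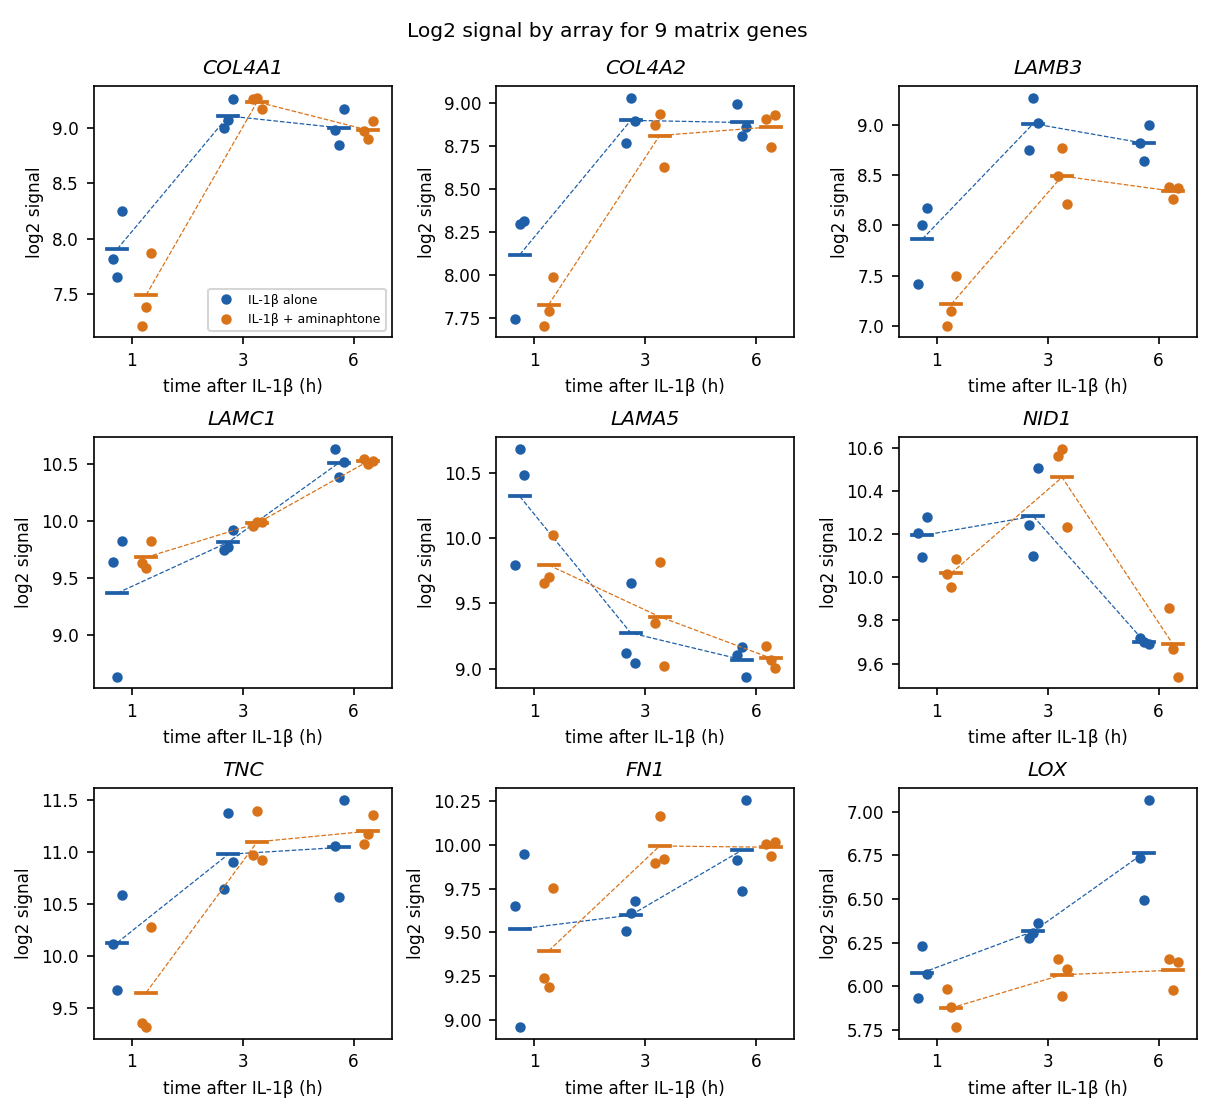
Log2 signal (y axis, a separate range for each gene) of every array against the time under IL-1β (x axis, 1, 3 and 6 h) for 9 matrix genes; points are arrays, bars are group means of 3 joined by dashed lines, blue is IL-1β alone and orange is with aminaphtone. COL4A1, COL4A2 and LAMB3 step up by 3 h, LAMC1 steps up by 6 h, NID1 drops between 3 h and 6 h, and LOX at 6 h is 6.49 to 7.07 in the controls and 5.98 to 6.16 with aminaphtone.

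HSPG2 and NID1, whose products link the laminin and collagen sheets, moved apart. HSPG2 encodes perlecan, and it rose in the controls by 0.60 ± 0.17 at 3 h (adjusted p = 0.0281) and 1.05 ± 0.17 at 6 h (2.07-fold, adjusted p = 0.000394), and with aminaphtone by 1.19 ± 0.17 (adjusted p = 0.00023) and 1.60 ± 0.17 (3.02-fold, adjusted p = 9.26e-06). Its treated arrays read 7.79, 7.87 and 8.23 at 1 h, 9.33, 9.17 and 8.95 at 3 h, and 9.71, 9.54 and 9.43 at 6 h, with each time above the one before and no overlap. AGRN, the heparan sulphate proteoglycan agrin, was called in no comparison of the main fit. With the replicate number as a block it was lower with aminaphtone at 1 h (-0.55, adjusted p = 0.0452). For that comparison it was called also with array weights and without control replicate 1 at 1 h. A fit limited to the groups compared did not call it there. That fit called AGRN only with aminaphtone at 6 h against 1 h, where its mean signal went from 9.93 at 1 h to 10.31 at 6 h.

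NID1 encodes nidogen-1, and it was the only member called between 3 h and 6 h. In the controls it read 10.21, 10.09 and 10.28 at 1 h, 10.24, 10.10 and 10.51 at 3 h, and 9.72, 9.70 and 9.69 at 6 h. The treated arrays read 10.02, 9.95 and 10.09, then 10.56, 10.60 and 10.23, then 9.86, 9.67 and 9.54, so that in each treatment all 6 h arrays lay below all earlier ones. NID1 fell from 3 h to 6 h by 0.58 ± 0.13 in the controls (adjusted p = 0.0483) and by 0.77 ± 0.13 with aminaphtone (1.71-fold, adjusted p = 0.0182). Against 1 h it had risen at 3 h with aminaphtone by 0.44 ± 0.13 (adjusted p = 0.0303) and fell in the controls at 6 h by 0.49 ± 0.13 (adjusted p = 0.00868). In these later comparisons 1 of 37 members was lower and 0 higher in each treatment, where 0.165% and 0.348% of all clusters were lower and higher in the controls and 0.241% and 0.0253% with aminaphtone. The control call between 3 h and 6 h was kept without 3 of the 18 single arrays and is lost under most alternatives; the treated call was kept without 14.

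Among the adhesive and matricellular genes, TNC and TGFBI rose and FN1 was not called in the main fit. TNC encodes tenascin-C, a matricellular protein of wounds and inflammation. Its control arrays read 10.12, 9.68 and 10.59 at 1 h, 10.65, 11.38 and 10.91 at 3 h, and 11.06, 10.57 and 11.50 at 6 h, with the 6 h arrays overlapping those of 1 h. The treated arrays read 9.36, 9.32 and 10.28, then 10.97, 11.39 and 10.93, then 11.08, 11.17 and 11.36, with no overlap. TNC rose with aminaphtone by 1.45 ± 0.28 at 3 h (2.73-fold, adjusted p = 0.00324) and 1.55 ± 0.28 at 6 h (2.93-fold, adjusted p = 0.00119), and in the controls by 0.91 ± 0.28 at 6 h (adjusted p = 0.0254), with 0.85 ± 0.28 at 3 h (adjusted p = 0.0593; TNC was called there with the replicate number as a block).

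TGFBI encodes a TGF-β-induced adhesion protein that binds collagens and integrins. It rose by 0.54 ± 0.15 at 3 h (adjusted p = 0.0269) and 0.74 ± 0.15 at 6 h (adjusted p = 0.00209) in the controls, and by 0.57 ± 0.15 (adjusted p = 0.0227) and 0.72 ± 0.15 (adjusted p = 0.00324) with aminaphtone. These changes were from 1.45-fold to 1.67-fold.

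FN1 encodes fibronectin, the glycoprotein of the provisional matrix. The controls read 9.65, 8.96 and 9.95 at 1 h, 9.51, 9.61 and 9.68 at 3 h, and 9.91, 9.74 and 10.26 at 6 h. With aminaphtone FN1 read 9.24, 9.19 and 9.75, then 9.90, 10.17 and 9.92, then 10.00, 9.94 and 10.02. The treated arrays of 3 h and 6 h lay above those of 1 h, while the control times overlapped. Its difference from 1 h was 0.08 ± 0.21 and 0.45 ± 0.21 in the controls (adjusted p = 0.868 and 0.118) and 0.60 ± 0.21 and 0.59 ± 0.21 with aminaphtone (adjusted p = 0.0769 and 0.0588). The treated differences of FN1 were called at both times with the replicate number as a block, with arrays centred on their medians, with a fit limited to the groups compared and with array weights. Deviations of same-numbered treated arrays correlated at -0.463, 0.252 and -0.359 between 1 h and 3 h. Between 1 h and 6 h they correlated at -0.678, -0.222 and -0.108, so the block calls rest on a pairing that the deviations do not show.

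THBS1 encodes thrombospondin-1, an inhibitor of new vessel growth and activator of TGF-β. In the controls it read 13.09, 12.46 and 13.03 at 1 h, 13.17, 13.12 and 13.09 at 3 h, and 12.82, 13.02 and 13.02 at 6 h, and with aminaphtone 13.15, 13.06 and 13.14, then 12.97, 13.15 and 12.93, then 12.62, 12.76 and 12.71. The treated 6 h arrays lay below all other treated arrays, whereas the controls showed no such order. THBS1 fell with aminaphtone at 6 h against 1 h by 0.42 ± 0.14 (1.33-fold, adjusted p = 0.0443), a call kept without 6 of the 18 single arrays and lost with the block; in the controls the difference was 0.10 ± 0.14. THBS2 and FBLN1 were not called in the main fit. Without control replicate 1 at 1 h, both were called for aminaphtone at 1 h. With the block THBS2 was called in no comparison and FBLN1 in the controls at 6 h, where the numbers were not taken as pairs.

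Of the 5 tested microfibril and elastic fibre genes, LTBP2 rose, and LTBP3, MFAP2 and EFEMP1 fell in 1 comparison each. The LTBP proteins bind to fibrillin microfibrils, and LTBP3 holds latent TGF-β there. LTBP2 rose by 0.41 ± 0.13 (adjusted p = 0.0466) at 3 h and 0.44 ± 0.13 (adjusted p = 0.018) at 6 h in the controls and by 0.46 ± 0.13 (adjusted p = 0.0294) at 3 h with aminaphtone. The control call at 3 h was kept without 3 of the 18 single arrays and lost under 19 of 26 alternatives, with an adjusted p of up to 0.11. LTBP3 fell in the controls at 6 h by 0.82 ± 0.22 (adjusted p = 0.0106) and MFAP2, a microfibril-associated glycoprotein, by 0.55 ± 0.16 (adjusted p = 0.016). EFEMP1, the fibulin-3 gene, fell with aminaphtone at 6 h by 0.67 ± 0.13 (1.59-fold, adjusted p = 0.0015). FBN1, the main fibrillin, was not called in a time comparison.

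The lysyl oxidases crosslink collagen and elastin. LOXL2 rose in the controls by 0.60 ± 0.16 at 3 h (adjusted p = 0.0192) and 0.72 ± 0.16 at 6 h (adjusted p = 0.00368), and with aminaphtone by 1.06 ± 0.16 (2.09-fold, adjusted p = 0.000326) and 1.10 ± 0.16 (2.14-fold, adjusted p = 0.000179). LOX read higher in the controls at 6 h by 0.69 ± 0.13 (1.61-fold, adjusted p = 0.00132), the group through which alone it passed the filter, so this call supports nothing, and differed with aminaphtone by 0.22 ± 0.13 (adjusted p = 0.293). LOXL1 and LOXL4 were not called. Of the cell-surface and interstitial proteoglycans, the syndecan gene SDC1 fell in the controls at 6 h by 0.74 ± 0.17 (adjusted p = 0.00489), while GPC1, VCAN and BGN were not called; VCAN was the uncalled member with the lowest difference, -0.81 at 6 h with aminaphtone.

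In the main fit, the collagens outside type IV showed no call in any comparison: COL1A1, COL5A1 and COL5A2 of the fibrils, COL12A1 on their surface, COL6A1 and COL6A2 of the beaded microfibrils, COL7A1, and the transmembrane COL13A1. Their differences from 1 h were at most 0.73, for COL12A1 at 6 h in the controls, where control replicate 2 at 1 h read 7.22 and replicate 1 read 8.75. Over the comparisons in that fit, 19 of the 37 members, LOX among them, were called at least once. The other 18 were FN1, AGRN, FBN1, THBS2, FBLN1, LOXL1, LOXL4, GPC1, VCAN and BGN with these 8 collagens. The share of all clusters called at least once was not counted, and single comparisons called up to 26.5% of them. The 19 therefore cannot be set against all clusters. Of the 18, AGRN, BGN, COL6A1, COL6A2 and COL12A1 were called for aminaphtone at 1 h with the block, COL12A1 and FBLN1 in the controls at 6 h, and FN1 in treated cells at 3 h and 6 h. Among these comparisons the replicate numbers were taken as pairs only for aminaphtone at 1 h.

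The counts of calls against the 1 h controls depend on which of those arrays are kept. At 3 h the 8 calls became 17 without control replicate 1 at 1 h, while the share of all clusters called went from 12.8% to 36.2%, 8 (7 of them the same genes) with it as the only 1 h control, and 4 without control replicate 3 at 3 h, which left COL4A1, COL4A2, LAMA5 and LAMB3. With the replicate number as a block there were 9. At 6 h the 17 calls became 23 without replicate 1, with 44.8% of all clusters called in place of 26.5%, and 11 with it alone, with 14.8%, when LAMA5, LAMB2, LTBP3, MFAP2, NID1, SDC1 and TNC were lost. The 6 members that rose in all 4 comparisons include COL4A1, COL4A2 and LAMB3, whose calls were kept without each single array; HSPG2, LOXL2 and TGFBI kept their control call at 3 h without 14, 16 and 15 of the 18. With aminaphtone the 10 calls at 3 h became 6 without aminaphtone replicate 1 at 1 h, replicate 2 at 1 h or replicate 1 at 3 h, each time losing LAMB1, LTBP2, NID1 and TGFBI.

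A further list of matrix genes (collagen-modifying enzymes, other collagens, matricellular and cell-surface proteins) had 73 measured genes, 54 of them tested. In the controls 2 rose and 2 fell at 3 h, where 4.81% and 7.98% of all clusters did. At 6 h 6 rose and 9 fell, against 11.3% and 15.2%, and between 3 h and 6 h 2 rose and 1 fell, against 0.348% and 0.165%. With aminaphtone 3 rose and 2 fell at 3 h, against 5.09% and 5.45%, and 5 rose and 7 fell at 6 h, against 6.01% and 10.7%. None was called there between 3 h and 6 h, where 0.0253% of all clusters rose and 0.241% fell. Whether the list differs from all clusters was not tested. The calls of this list, here and below, were not followed with arrays left out, so their stability is not known. Those against the 1 h controls rest on the arrays that disagree. The median differences of the list were -0.02 and -0.01 in the controls and 0.09 and 0.10 with aminaphtone at 3 h and 6 h. The enzymes that hydroxylate collagen in the endoplasmic reticulum were among the largest changes: in the controls at 6 h P4HA1 rose by 1.64 ± 0.18 (3.12-fold, adjusted p = 1.31e-05), P4HA2 by 1.03 ± 0.12 (adjusted p = 1.66e-05) and PLOD2 by 0.95 ± 0.27 (adjusted p = 0.0167), while PLOD1 fell by 0.82 ± 0.19 (adjusted p = 0.00556). P4HA1 rose also between 3 h and 6 h, by 1.28 ± 0.18 (adjusted p = 0.0034), as did P4HA2, by 0.86 ± 0.12 (adjusted p = 0.00255). With aminaphtone at 6 h against 1 h, P4HA1 differed by 0.06 ± 0.18 (adjusted p = 0.846) and PLOD2 by -0.46 ± 0.27 (adjusted p = 0.28), while P4HA2 rose by 0.62 ± 0.12 (adjusted p = 0.00146) and PLOD1 fell by 0.64 ± 0.19 (adjusted p = 0.0311). Between the treatments, P4HA1 differed by 0.66 ± 0.18 at 1 h and -0.92 ± 0.18 at 6 h (adjusted p = 0.138 and 0.0626), and PLOD2 by 0.61 ± 0.27 and -0.81 ± 0.27 (adjusted p = 0.154 and 0.807). The test of treatment by time called neither (adjusted p = 0.104 for P4HA1 and 0.521 for PLOD2).

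The matricellular genes CCN2 and CCN1, of the connective tissue growth factor family, fell in each treatment. CCN2 fell at 6 h by 1.63 ± 0.26 in the controls (adjusted p = 0.000394) and fell by 2.03 ± 0.26 with aminaphtone (4.08-fold, adjusted p = 6.65e-05), and CCN1 by 1.25 ± 0.14 (adjusted p = 1.7e-05) and 1.38 ± 0.14 (adjusted p = 7.74e-06). TGM2, the transglutaminase that crosslinks fibronectin, rose at 6 h by 0.97 ± 0.15 (adjusted p = 0.000303) and 1.39 ± 0.15 (2.61-fold, adjusted p = 1.21e-05). The syndecan gene SDC2 fell by 0.87 ± 0.13 (adjusted p = 0.000186) and 0.83 ± 0.13 (adjusted p = 0.000307).

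Aminaphtone was compared with IL-1β alone at each time, the question the study set. No matrix gene was called at 1 h, 3 h or 6 h (limma, 0 of 37 each). Among all clusters, 0.0506% were higher and 0.038% lower at 1 h, 0.019% and 0.019% at 3 h, and 0% and 0.108% at 6 h. At an unadjusted p under 0.05 there were 18 members at 1 h (48.6%, where 30.8% of all clusters had such a p), 1 at 3 h (2.7% against 6.5%) and 3 at 6 h (8.11% against 3.93%). Averaged over the times, LAMB3 and LOX were lower with aminaphtone, 2 of 37, where 0.405% of all clusters were lower and 0.424% higher. In that average 5 members had an unadjusted p under 0.05 (13.5%, against 18.9% of all clusters). LOX is among these 5 and among the 3 at 6 h. It passed the filter only through the 6 h controls, as described below, so it adds no support to these counts. The 95% intervals of the other 35 averaged differences all lay between -0.46 and 0.66 log2 units. Each interval holds for its own gene in this fit, without adjustment over genes, so together they do not exclude larger differences.

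**Figure D4:**
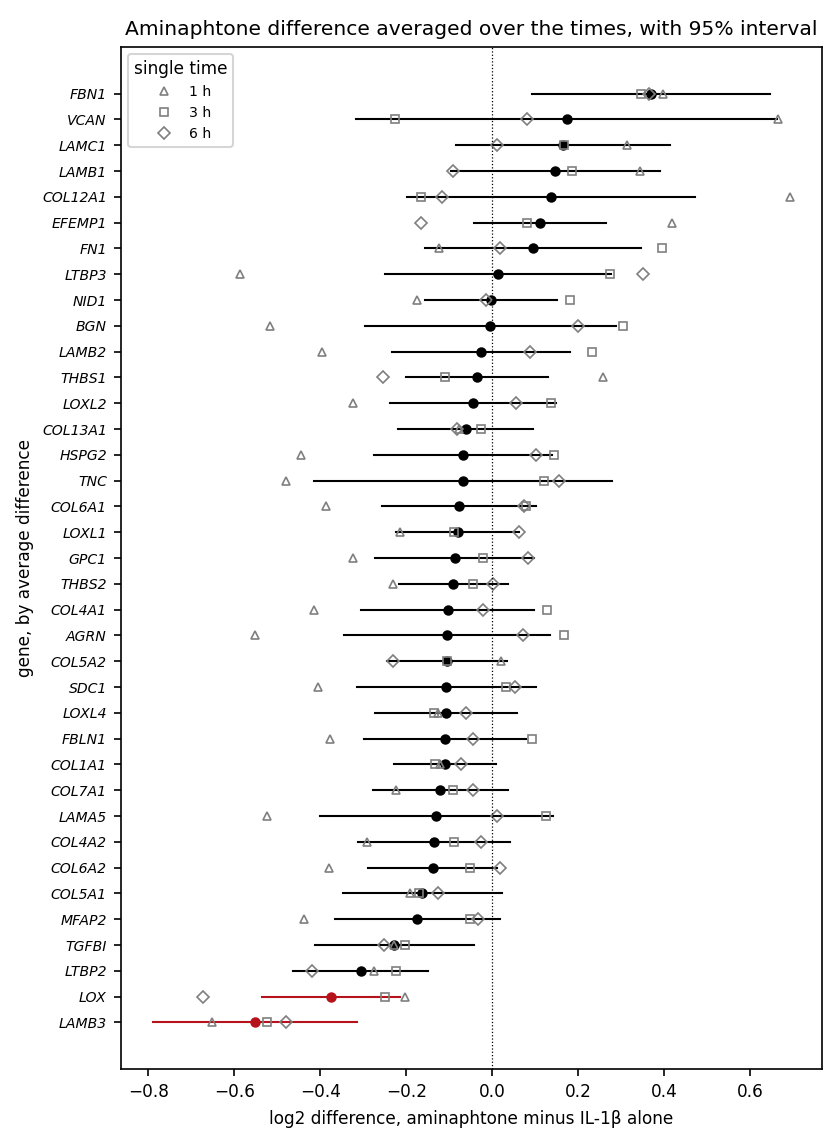
Log2 difference between aminaphtone and IL-1β alone (x axis) for the 37 tested matrix genes (rows, ordered): filled points with lines are the average over the times with its 95% interval, red where the adjusted p was under 0.05, and open grey symbols are the differences at 1, 3 and 6 h. LAMB3, at -0.55, and LOX, at -0.37, lie lowest, and for most genes the 1 h symbol lies away from those of 3 h and 6 h.

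The LAMB3 difference between aminaphtone and control was -0.65 ± 0.19 log2 units at 1 h, -0.52 ± 0.19 at 3 h and -0.48 ± 0.19 at 6 h (adjusted p = 0.139, 0.591 and 1). The treated and control arrays given above overlapped at 1 h and at 3 h, by 1 treated array each, and stood apart at 6 h, where the treated ones read 8.26 to 8.38 and the controls 8.64 to 9.00. Averaged over the times the difference was -0.55 ± 0.11 (1.47-fold lower, 95% interval -0.79 to -0.31, adjusted p = 0.0284). The call was kept without 6 of the 18 single arrays, with an adjusted p of up to 0.083, and over 3 h and 6 h alone it was -0.50 ± 0.11 (adjusted p = 0.0367). With control replicate 1 as the only 1 h control the average was -0.40 (adjusted p = 0.12), and with that replicate left out it was -0.63 (adjusted p = 0.0022).

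The promoter window of LAMB3 is shown for the gene with the largest averaged difference; it is read on the minus strand of GRCh38.p14 at chr1:209652376-209652675, with capitals on an Sp1 box and on matches to the NF-κB consensus, the site of the factor that IL-1β is known to activate.
LAMB3: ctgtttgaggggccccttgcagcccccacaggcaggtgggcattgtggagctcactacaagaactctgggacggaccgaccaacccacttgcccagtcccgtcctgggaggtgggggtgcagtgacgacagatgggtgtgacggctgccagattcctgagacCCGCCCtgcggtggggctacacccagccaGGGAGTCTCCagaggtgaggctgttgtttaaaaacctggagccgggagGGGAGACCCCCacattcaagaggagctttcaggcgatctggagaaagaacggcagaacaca
The window holds 3 such NF-κB matches, 2 of which overlap in the second capital run after the Sp1 box, against 22.5% of the members' windows and 11.27% of all windows with at least 1. Its GC content was 61.33%.

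LOX encodes lysyl oxidase itself, the crosslinker of fibrillar collagen and elastin. The controls read 5.93, 6.23 and 6.07 at 1 h, 6.28, 6.30 and 6.36 at 3 h, and 6.73, 6.49 and 7.07 at 6 h, and the treated arrays 5.98, 5.88 and 5.76, then 6.15, 5.94 and 6.10, then 6.16, 5.98 and 6.14. The groups overlapped at 1 h and stood apart at 3 h and 6 h, with the control arrays higher at each later time. The difference was -0.20 ± 0.13 at 1 h, -0.25 ± 0.13 at 3 h and -0.67 ± 0.13 at 6 h (adjusted p = 0.258, 0.822 and 0.0575), and -0.37 ± 0.08 averaged (1.30-fold lower, adjusted p = 0.0268). The averaged call was kept without 8 of the 18 single arrays, and over 3 h and 6 h alone it was -0.46 ± 0.09 (adjusted p = 0.0267).

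LOX sits at the edge of what was tested. Its mean log2 signal of 6.20 passed the filter of 6.19, and without the control arrays of 6 h that mean would be 6.08: LOX passed only through the group in which it is high, so its call adds no support to the count, which is 1 of 37 without it. It is the only member for which this holds.

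The LOX promoter window is printed for its matches to the HIF core ACGTG, of which it holds 4; it is read on the minus strand of GRCh38.p14 at chr5:122078210-122078509, and the remaining capital run is an Sp1 box.
LOX: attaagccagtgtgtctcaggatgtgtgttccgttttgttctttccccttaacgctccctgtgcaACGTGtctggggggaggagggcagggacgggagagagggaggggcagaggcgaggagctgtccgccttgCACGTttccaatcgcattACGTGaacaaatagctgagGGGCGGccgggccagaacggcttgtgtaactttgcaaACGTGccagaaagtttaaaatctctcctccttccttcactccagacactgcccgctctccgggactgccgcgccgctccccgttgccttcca
LOX and the P4HA and PLOD2 genes above are known targets of hypoxia-inducible factors. At least 1 HIF core stood in 15.0% of the members' windows and 21.41% of all windows.

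LTBP2 came next, with -0.27 ± 0.13 at 1 h, -0.22 ± 0.13 at 3 h and -0.42 ± 0.13 at 6 h. Its treated arrays lay below all controls at 3 h (8.25, 8.42 and 8.11 against 8.43, 8.54 and 8.48) and at 6 h (8.15, 8.06 and 8.07 against 8.54, 8.46 and 8.55). The averaged difference was -0.31 ± 0.07 and was not called (adjusted p = 0.0634). It was called with the replicate number as a block (adjusted p = 0.0235) and without all 1 h arrays (adjusted p = 0.0327). The block pairs same-numbered control and treated arrays also at 3 h and 6 h. Their deviations correlated there at -0.106, 0.519 and -0.0106, and at 0.456, -0.0862 and 0.711, so they were not taken as pairs. With control replicate 1 as the only 1 h control the average was -0.20 (adjusted p = 0.242) and the 1 h difference 0.06. Over the 37 members, 11, LOX among them, had a negative difference at all 3 times and 2, LAMC1 and FBN1, a positive one. Such signs at all 3 times were not counted over all clusters. The average was above 0 for 8 members and for 45.7% of all clusters, and negative for 29 members. The 1 h control arrays that disagree enter each average. The averaged median was -0.09 over the members and -0.02 over all clusters tested. The 6 h groups did not overlap for 8 members (21.6%, against 16.1% of all clusters), lower with aminaphtone for COL5A2, LAMB3, THBS1, LTBP2 and LOX and higher for FBN1, LTBP3 and BGN. At 3 h they did not for 5 members (13.5% against 12.6%), LOX among the lower and FN1 among the higher with a difference of 0.40 ± 0.21 (adjusted p = 0.819). LOX passed the filter only through the 6 h controls, so it adds no support to the counts without overlap at 3 h and 6 h.

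The 1 h comparison rests on the control arrays that disagree. The lowest p belonged to LAMB3, EFEMP1 (0.42 ± 0.13) and COL6A2 (-0.38 ± 0.12), each with an adjusted p of 0.139, and 29 of the 37 members had a negative difference, with a median of -0.23 against -0.10 over all clusters. A difference above 0 was found for 8 members and for 40.3% of all clusters. With the replicate number as a block, since same-numbered arrays of 1 h deviated together, 12 members were called: COL4A1, COL6A1, COL6A2, LAMA5, LAMB3, AGRN, HSPG2, LTBP3, SDC1 and BGN lower and COL12A1 and EFEMP1 higher, where 15.6% of all clusters were called in either direction. Without control replicate 1 at 1 h, 25 members and 8516 of all 15796 clusters were called, and with replicate 1 as the only control at 1 h no member was. At 6 h LOX was called without control replicate 1 or 2 at 1 h or control replicate 2 at 6 h.

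Whether the treatment difference changed with time was tested as an interaction. No member was called (0 of 37, where 0.038% of all clusters were), with a lowest adjusted p of 0.521 and 7 members at an unadjusted p under 0.05. Without control replicate 1 at 1 h 9 were called (24.3%), where 19.0% of all clusters were. The other matrix genes gave 1 call in the treatment comparisons, SRGN, the gene of the intracellular proteoglycan serglycin, with a difference of -0.39 ± 0.07 averaged over the times (adjusted p = 0.0193). In that averaged comparison 0.405% of all clusters were lower.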

How the data were processed

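Total RNA of 18 cultures was read on Affymetrix Human Gene 1.0 ST arrays. The authors deposited log2 signals per transcript cluster, made with RMA in Affymetrix Expression Console per the submitters' processing notes; RMA corrects background, normalizes by quantiles across arrays and summarises probes, which compresses small and near-background differences. Its version, the arrays normalized together and the annotation's genome build are not given in the sources used here. Clusters were named by the platform annotation (19310 of 28869 have a single symbol, 1752 several and 7807 none; 19279 matched a RefSeq gene). Read depth does not apply to arrays; their small number sets the precision.

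Groups followed the labels, with 3 arrays each. A linear model with group means was run over the 18 arrays with limma 3.58.1 under R 4.3.3 (12 residual and 4.814 prior degrees of freedom), using Benjamini-Hochberg adjustment over the 15796 annotated clusters above the 25th percentile of mean signal and a two-sided threshold of 0.05; the code was tested on simulated data. The members and gene lists were chosen with earlier results of these data known. For each comparison all called members up to 12, else the 12 largest, were to be named, and 5 further were named after their values were seen. Same-numbered arrays were taken as pairs where each of the 3 pairs' deviations correlated above 0.1: control and treated at 1 h (0.746, 0.411, 0.322) and controls at 1 h and 3 h (0.313, 0.359, 0.258); the labels state no pairing. Replicates are labelled independent. Alternatives varied the variance model, filter, centring, arrays fitted, array weights, block and arrays left out.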

Additional observations from a re-analysis of the deposited data

How the results depend on the processing

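Of the 51 calls of single members named above, 32 were kept without each of the 18 arrays in turn. None of the 51 changed direction under any alternative tried. The calls named for cell type markers and for the further list of matrix genes were not followed through the alternatives. Of the 1564 alternatives for single members, 1385 kept the direction and the side of the threshold, 162 lost the call and 17 gained one. Each gene has 1 cluster, so taking the mean of all clusters of a gene gave no other value.

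The counts of called members moved as follows, and the cause was not tested. The share of all clusters called moved too, as given above for the fits without control replicate 1 at 1 h. It is not given for every setting here and below, so these counts cannot be read as changes in the members alone. Leaving out single arrays gave 0 to 25 at 1 h for aminaphtone, 0 at 3 h, 0 to 1 at 6 h, 0 to 7 averaged over the times and 0 to 9 in the interaction test. For the controls it gave 4 to 17 (3 h against 1 h), 13 to 23 (6 h against 1 h) and 0 to 2 (6 h against 3 h), and for treated cells 6 to 12, 10 to 14 and 0 to 2. Array weights, which ranged from 0.13 to 7.84, gave 28 at 1 h, 6 at 6 h, 11 averaged, 22 in the interaction test, 22, 28 and 4 for the controls in the same order, and 17, 23 and 13 for treated cells; they called 62.7%, 17.7%, 42.9% and 40.4% of all clusters in the first 4 of these, 49.9%, 59.6% and 13.1% for the controls and 30.4%, 48.7% and 32% for treated cells. Fitting only the arrays compared gave 2 for the controls at 3 h and 6 at 6 h, and 2 for treated cells between 3 h and 6 h; the 2 at 3 h were COL4A1 and LAMB3.

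The replicate block gave 12 at 1 h, where the numbers were taken as pairs, and 0 for the controls between 3 h and 6 h, where they were not. It moved no other count by over 1.5 times, with 9 and 19 for the controls against 1 h, 10 and 12 for treated cells and 3 for the average. With trended and robust variance, 1 member was called at 6 h for aminaphtone and 0 in the controls between 3 h and 6 h; that last count was 0 also without the filter, with the stricter filter and with arrays centred on their medians. The stricter filter gave 1 for the average, since LOX was then not tested. Centring moved the median of all clusters by at most 0.07 in any comparison.

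2 alternatives were added after seeing the data. With control replicate 1 as the only 1 h control, counts were 1 at 6 h, 0 for the average, 11 for the controls at 6 h against 1 h, 2 for them between 3 h and 6 h, and 2 for treated cells between 3 h and 6 h. Without all 1 h arrays, the counts between 3 h and 6 h were 2 in the controls and 2 in treated cells. With 3 arrays a group, the spread of the 1 h controls and near-background signals limit small differences.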
